A study of Mus musculus with 18 samples.

Results

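The interaction of iron oxide nanoparticles with lipopolysaccharide (LPS) was measured in primary mouse macrophages, as the change in the LPS response of each gene when the cells had been treated with particles first. Its value used 12 of the 18 arrays of the series, titled CON, LPS, SPIO and SPIO-LPS, with 3 arrays in each group. The spread behind its p-value was estimated from all 18 arrays. For each of 12393 genes the interaction was (SPIO-LPS minus SPIO) minus (LPS minus CON) on the log2 scale, taken from the brightest probe set of the gene by its mean over the 18 arrays. An interaction above 0 means that LPS raised a gene more, or lowered it less, after iron oxide than after plain medium, and an interaction below 0 means the reverse.

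The macrophages were grown from femur marrow of C57BL/6 mice aged 4 to 6 weeks, in medium conditioned by L929 cells. CON cells stood for 24 h in medium without particles and then received fresh medium. LPS cells also stood for 24 h without particles and then received fresh medium with 10 ng/ml of Escherichia coli LPS for 4 h. SPIO cells stood for 24 h with iron oxide particles of 33 nm, at a concentration that the labels give as 25 mg/ml, a unit that could not be checked and may be a misprint, and were then washed and given fresh medium. SPIO-LPS cells had the same iron oxide treatment and wash before the 4 h with LPS. The remaining 6 arrays, Silica and Silica-LPS, held cells treated in the same way with amorphous silica particles of 50 nm. The labels describe the arrays within a group as biological replicates without naming animals, and p-values here reflect only how far these samples spread, which may be technical.

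LPS, the outer membrane lipid of Gram-negative bacteria, is handed by CD14 to Toll-like receptor 4. The receptor signals through MYD88 to NF-kB and MAP kinases, which drive cytokine and chemokine genes, and through TICAM1 to IRF3 and interferon beta, which drives antiviral genes. Macrophages also clear particles by phagocytosis, break them down in lysosomes, store or export the iron, and answer oxidants and electrophiles through the transcription factor NRF2.

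Array medians lay between 6.23 and 6.27 with LPS and between 6.35 and 6.43 without it, and arrays of the same group correlated at 0.997 to 0.999 across probe sets. An interaction had a median standard error (SE) of 0.11 and a median 95% interval of ± 0.25 on the log2 scale. Among macrophage markers, Csf1r, the receptor for macrophage colony-stimulating factor, lay between 13.59 and 13.93 on the 12 arrays. Adgre1 lay between 11.83 and 12.35, Lyz2 between 14.30 and 14.49, Spi1 between 9.20 and 10.99 and Itgam between 8.39 and 9.49. Of 19 macrophage identity genes 17 had a mean of 7 or more in CON, and the dimmest was Maf at 4.68. Interactions were called higher for 4 of the 19, among them Adgre1 (0.32), and lower for 1, beside 3.73% and 5.07% of all genes. Markers of other cells were also present. The summed linear signal of 15 fibroblast genes was 50610 to 51644 in CON, 39679 to 42198 in LPS, 41450 to 42715 in SPIO and 32936 to 33588 in SPIO-LPS, with Col1a2 the brightest of them in CON at 13.55 and Lum the dimmest at 2.90. The sum of 14 neutrophil genes was 23113 to 24625 in CON, 25455 to 25933 in LPS, 16765 to 17474 in SPIO and 18364 to 18971 in SPIO-LPS, with S100a8 the brightest in CON at 13.12. None of the 15 fibroblast genes and 1 of the 14 neutrophil genes, Csf3r, had a called interaction, and the part of these cells in the other results was not tested. In such bulk samples, fewer cells of a type and less RNA per cell cannot be told apart. As a sign of RNA quality, the 3′ control probe set of Gapdh exceeded the 5′ one by 0.69 on the log2 scale in CON, 0.52 in LPS, 0.47 in SPIO and 0.40 in SPIO-LPS, a difference of differences of 0.10, and for Actb the difference of differences was 0.07.

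Iron oxide changed the LPS response of 1090 genes, 8.8% of those tested, at an adjusted p below 0.05 in limma, which is what "called" means here. The interaction was called higher for 462 genes (3.73%) and lower for 628 (5.07%). It reached 2-fold, 1 on the log2 scale, for 66 genes (0.533%), of which 37 were higher and 29 lower. For 1045 genes (8.43% of all tested) the interaction was called and the 9 differences of SPIO-LPS arrays from SPIO arrays did not overlap the 9 differences of LPS arrays from CON arrays. The genes with the largest interactions below 0 included Il10, the cytokine that restrains macrophage activation, and Pfkfb3, an activator of glycolysis. Those above 0 included Plk2, a stress-inducible Polo-like kinase, the neutrophil chemokine genes Cxcl1 and Cxcl2, and Slc40a1, which encodes the iron exporter ferroportin.

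**Figure D1:**
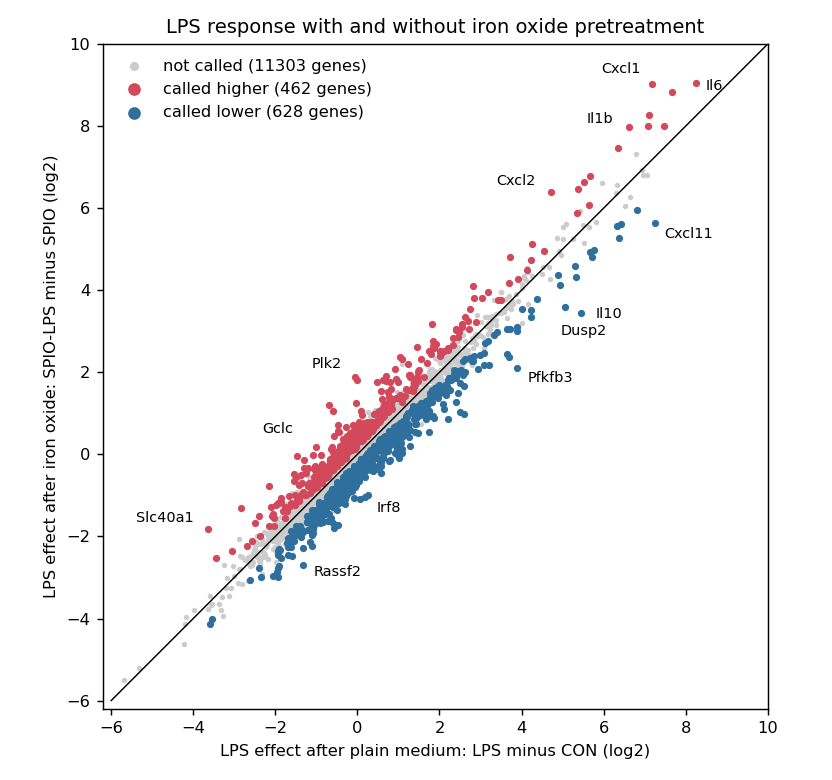
Each point is 1 of 12393 genes, with the LPS effect after plain medium (LPS minus CON, log2) on the horizontal axis and the LPS effect after iron oxide (SPIO-LPS minus SPIO, log2) on the vertical axis, and the line marks equal effects. The 462 genes called higher lie above the line, with Plk2, Cxcl1 and Slc40a1 far from it, and the 628 called lower lie below it, with Il10 and Pfkfb3 far from it.

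Called interactions were found among genes that LPS raised, lowered and left uncalled. The class of a gene was taken from the silica arrays (Silica-LPS minus Silica), where 21.5% of genes were raised and 35.8% lowered. These arrays do not enter the interaction value, but they do enter the estimate of spread behind its calls. A gene of small spread is more readily called in both, so the shares called are not independent of the class. Of 2662 genes that LPS raised there, 202 (7.59%) had a higher and 309 (11.6%) a lower interaction. Of 4442 genes that LPS lowered, 187 (4.21%) were higher and 246 (5.54%) lower. Among 5289 genes with no called LPS effect, 73 (1.38%) were called each way. The share was larger among genes with a larger response. Among the 680 genes that LPS raised at least 2-fold, 97 (14.3%) were higher and 160 (23.5%) lower, with a median interaction of -0.07, and among the 72 genes raised at least 16-fold, 20 were higher and 17 lower, with a median of 0.08. The median over all genes was 0.01.

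The same interaction value arose in several ways. Iron oxide had a called effect in 33.8% of all genes without LPS (SPIO minus CON) and in 32.7% with it (SPIO-LPS minus LPS). Of the 462 genes called higher, 134 (29%) had no called iron oxide effect without LPS and a called rise with it, 111 (24%) were lower after iron oxide without LPS and not called with it, and 103 (22.3%) were higher in both settings. Of the 628 called lower, 196 (31.2%) were raised by iron oxide without LPS and not called with it, and 186 (29.6%) were lower with LPS and not called without it. In 127 genes (11.7% of the 1090) the iron oxide effect was called in opposite directions without and with LPS. An interaction also depends on the scale. When linear signals were compared in place of log2 signals, the sign turned for 47 of the 462 genes called higher (10.2%) and for 22 of the 628 called lower (3.5%), and those among the genes below are named as they come. Unlike the main fit, the linear fit also let the spread vary with the mean signal (a variance trend). This bears on its calls and adjusted p, not on its signs.

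Il10 had the most negative interaction. Its log2 signals were 3.23, 3.13 and 3.63 in CON, 8.78, 8.73 and 8.83 in LPS, 3.34, 3.62 and 3.13 in SPIO and 6.66, 6.95 and 6.84 in SPIO-LPS. The groups without LPS overlapped, at the low end of the scale, and the 3 SPIO-LPS arrays lay below all LPS arrays. On these signals LPS raised Il10 43.7-fold after medium and 10.9-fold after iron oxide. Signals this low may not be above background, and then both folds are lower bounds. Between the groups with LPS, where Il10 was well up the scale, iron oxide changed it by -1.96, and the fit gave an interaction of -2.0 ± 0.19 (SE, adjusted p = 3.95e-06).

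Pfkfb3 makes the allosteric activator of phosphofructokinase. Its log2 signals were 7.37, 7.41 and 7.32 in CON, 11.32, 11.22 and 11.22 in LPS, 7.63, 7.61 and 7.66 in SPIO and 9.75, 9.78 and 9.70 in SPIO-LPS. The SPIO arrays lay slightly above CON and the SPIO-LPS arrays well below LPS, so that the rise with LPS was 14.8-fold after medium and 4.31-fold after iron oxide (interaction -1.78 ± 0.068, adjusted p = 3.3e-10). A dimmer probe set of the gene, with a mean log2 signal of 4.79, gave -0.68.

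Dusp2 encodes a nuclear phosphatase that inactivates MAP kinases. It stood at 5.71, 5.51 and 5.75 in CON, 10.70, 10.67 and 10.75 in LPS, 5.72, 5.89 and 5.65 in SPIO and 9.30, 9.47 and 9.24 in SPIO-LPS. The SPIO and CON arrays overlapped and only the response to LPS was smaller (interaction -1.47 ± 0.11, adjusted p = 3.54e-07). Cxcl11 encodes an interferon-induced ligand of CXCR3, a chemokine receptor of activated T cells. It was at 3.72, 4.06 and 4.22 in CON, 11.20, 11.32 and 11.23 in LPS, 4.17, 4.13 and 3.87 in SPIO and 9.54, 9.93 and 9.59 in SPIO-LPS. Its rise was 152-fold after medium and 49.5-fold after iron oxide, folds that are lower bounds if the low signals without LPS were not above background, with an interaction of -1.62 ± 0.18 (adjusted p = 2.78e-05).

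Irf8 changed the sign of its response. This myeloid transcription factor was at 9.79, 9.84 and 9.91 in CON, 10.01, 10.05 and 10.06 in LPS, 10.11, 10.09 and 10.20 in SPIO and 9.01, 9.21 and 9.04 in SPIO-LPS. Only the 3 SPIO-LPS arrays were low. LPS raised Irf8 by 0.20 on the log2 scale after medium (adjusted p = 0.00639) and changed it by -1.05 after iron oxide, an interaction of -1.24 ± 0.078 (adjusted p = 9.62e-08). Tmem268, a membrane protein gene, had effects of 0.26 and -0.98 (interaction -1.24 ± 0.088).

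Other genes with large negative interactions differed in where the change lay. Fgl2 (a secreted and membrane-bound fibrinogen-like protein of myeloid cells) and Tha1 (threonine aldolase) had an LPS effect of 2.60 and 2.51 after medium and of 0.97 and 1.02 after iron oxide. Lipg, endothelial lipase, had effects of 3.69 and 2.38. For Rassf2, a RAS-association domain protein, the fall with LPS was larger after iron oxide, at -1.32 against -2.69, and its SPIO-LPS arrays lay at 6.33, 6.44 and 6.52 against 7.98, 7.85 and 8.05 in LPS. Bst1 and Bex1 were instead high in SPIO already. Bst1 (CD157, an enzyme of the cell surface) stood at 5.95 to 6.17 in CON and 7.79 to 8.0 in SPIO, and LPS added 2.22 in the first setting and 0.85 in the second (interaction -1.37 ± 0.096). Bex1 stood at 3.28 to 3.54 in CON, 6.76 to 7.32 in SPIO and 4.82 to 5.65 in SPIO-LPS, an interaction of -1.25 ± 0.30 (adjusted p = 0.0147).

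Plk2 had the largest interaction above 0. Its log2 signals were 9.65, 9.62 and 9.68 in CON, 9.56, 9.60 and 9.61 in LPS, 9.26, 9.29 and 9.37 in SPIO and 11.23, 11.13 and 11.20 in SPIO-LPS. The LPS and CON arrays lay close together, SPIO was a little lower, and only the combination was high. The LPS effect was -0.06 ± 0.044 after medium, which was not called (adjusted p = 0.243), and 1.88 or 3.68-fold after iron oxide, an interaction of 1.94 ± 0.062 (adjusted p = 5.06e-11). Cdkn2b, which encodes the cyclin-dependent kinase inhibitor p15, had the same pattern at a lower level, with 6.39, 6.16 and 6.15 in CON, 6.13, 6.38 and 6.14 in LPS, 5.94, 6.16 and 5.93 in SPIO and 7.71, 7.91 and 7.85 in SPIO-LPS. The first 3 groups overlapped and the interaction was 1.83 ± 0.12 (adjusted p = 1.72e-07).

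The promoter of Plk2 is shown because the gene was high only in the combination. It is the 250 bases upstream of the start at chr13:110394794-110395043 on the plus strand, from RefSeq in build GRCm38.p6, with capitals marking a match to the interferon-stimulated response element (ISRE, GAAA, any 2 bases and GAAA, on either strand) 219 bases before the start and a full cyclic AMP response element (CRE, TGACGTCA) 62 bases before it.
Plk2: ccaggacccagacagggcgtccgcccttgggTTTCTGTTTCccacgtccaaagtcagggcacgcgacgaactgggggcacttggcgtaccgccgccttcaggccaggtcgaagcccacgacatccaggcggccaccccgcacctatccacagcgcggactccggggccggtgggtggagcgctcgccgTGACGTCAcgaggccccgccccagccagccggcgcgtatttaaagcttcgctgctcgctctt
A match is a description of the letters and no evidence of binding. Of 9887 tested genes with a RefSeq promoter of 250 bases before and 50 after the start, 3.17% held the ISRE letters and 2.75% the CRE letters.

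Ahr and Rabgap1l turned from a fall into a rise. Ahr, the aryl hydrocarbon receptor, was at 7.93, 7.84 and 7.96 in CON, 7.44, 7.15 and 7.34 in LPS, 7.41, 7.60 and 7.44 in SPIO and 8.57, 8.44 and 8.62 in SPIO-LPS. LPS and SPIO each left Ahr below CON and overlapped with each other, while every SPIO-LPS array was above CON. Its LPS effect was -0.60 after medium and 1.06 after iron oxide (interaction 1.66 ± 0.11, adjusted p = 1.72e-07), and a dimmer probe set with a mean of 4.52 gave an interaction of 0.48. Rabgap1l, a regulator of Rab GTPases, stood at 7.29, 7.34 and 7.41 in CON, 6.65, 6.55 and 6.76 in LPS, 7.60, 7.49 and 7.53 in SPIO and 8.72, 8.65 and 8.87 in SPIO-LPS, an interaction of 1.90 ± 0.097 (adjusted p = 1.01e-08). Its other probe set, with a mean of 3.75, gave 0.08.

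**Figure D2:**
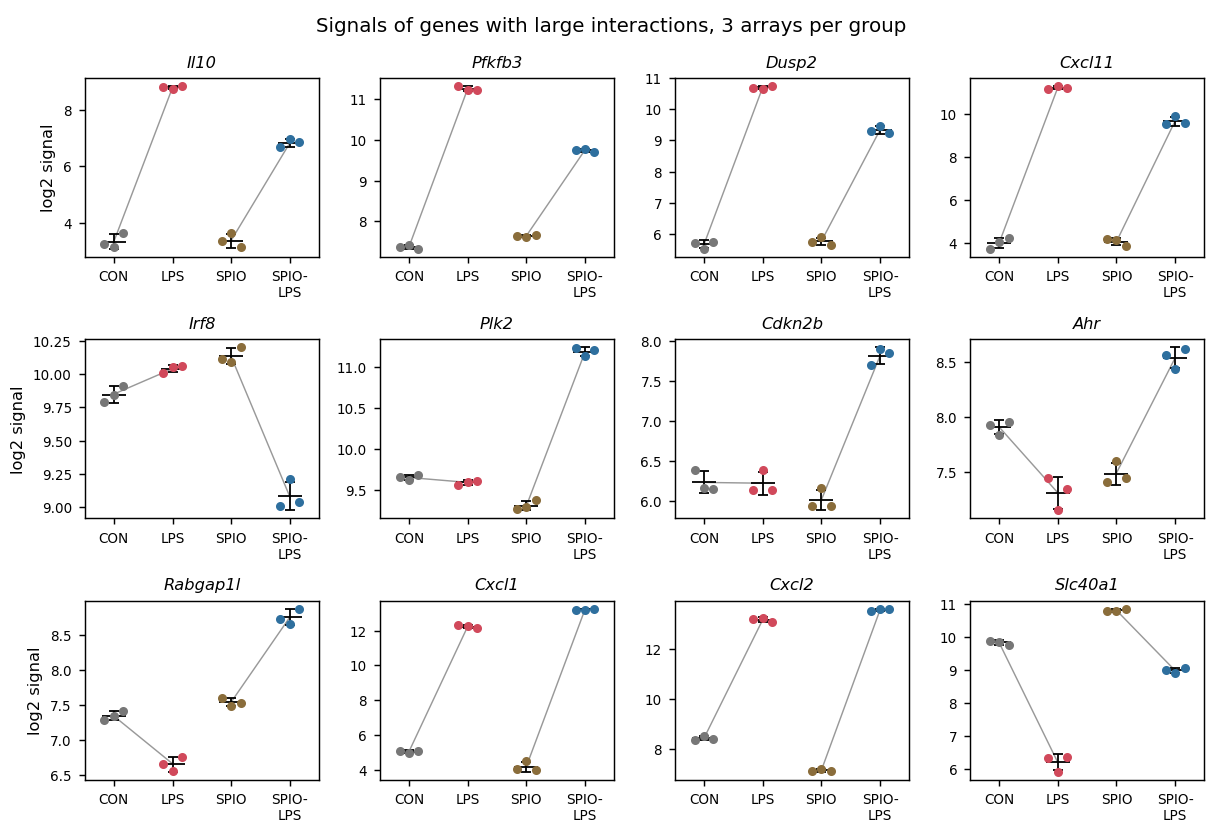
Points are the log2 signals (vertical axes) of 12 genes on the 3 arrays of each group (horizontal axes), with bars for the mean ± SD and grey lines joining the means of the groups without and with LPS. Plk2 and Cdkn2b are high in SPIO-LPS alone, Irf8 is low in SPIO-LPS alone, and Il10 rises to about 8.8 in LPS and to between 6.66 and 6.95 in SPIO-LPS.

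In 60 genes (5.5% of the 1090) LPS was called in opposite directions after medium and after iron oxide, and 30 of these turned each way, where 58.2% of all genes had a called LPS effect after medium and 64.1% after iron oxide. Besides Irf8, Ahr and Rabgap1l, the turns from a rise to a fall included Fabp4, a fatty acid carrier of macrophages (0.58 and -0.46), and Plin2, which coats lipid droplets (0.16 and -0.38). The turns from a fall to a rise included Gclc, the catalytic subunit of glutathione synthesis (-1.0 and 0.17), and Myc, a transcription factor of growth (-0.21 and 0.25). Pik3r1, the regulatory subunit of PI3 kinase, had effects of -0.48 and 0.71, and Map3k5 (ASK1), a kinase activated by oxidants, of -0.19 and 0.53. Mapk14, the p38 alpha MAP kinase, had effects of -0.34 and 0.26.

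Slc40a1 stood out among the genes of iron. Ferroportin is the only known exporter of iron from macrophages, and LPS is known to lower its transcript. The gene was at 9.90, 9.87 and 9.76 in CON, 6.34, 5.92 and 6.35 in LPS, 10.79, 10.79 and 10.87 in SPIO and 9.01, 8.92 and 9.06 in SPIO-LPS, with no overlap between any of the groups. LPS lowered it 12.5-fold after medium and 3.53-fold after iron oxide, an interaction of 1.82 ± 0.13 (adjusted p = 3.54e-07). On linear signals, where the fall starts from a higher level in SPIO, the sign turned (-448 signal units). Of 27 iron-handling genes measured, Slc40a1 was called higher and 3 lower, beside 3.73% and 5.07% of all genes. A second became higher without LPS 1, and on linear signals 6 were higher and 8 lower. Over all 12393 genes linear signals called 737 higher and 1168 lower, and the linear counts of the lists that follow stand beside these totals. Tfrc, the transferrin receptor that imports iron, was at 10.54 to 10.65 in CON, 10.09 to 10.16 in LPS, 11.14 to 11.26 in SPIO and 10.23 to 10.32 in SPIO-LPS (interaction -0.48 ± 0.068, adjusted p = 0.000212). The mean of its 3 probe sets gave -0.22 and was not called (adjusted p = 0.344). Cp, the ferroxidase ceruloplasmin, had an interaction of -0.51 ± 0.098 and the mitochondrial importer Slc25a28 of -0.21. Fth1, the ferritin heavy chain, lay between 14.39 and 14.54 on all 12 arrays, near the highest signals of the arrays.

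Several other genes were lowered less by LPS after iron oxide. Cytip, which binds the guanine exchange factor cytohesin, was at 9.78 to 9.86 in CON, 6.91 to 7.02 in LPS, 8.50 to 8.63 in SPIO and 7.12 to 7.38 in SPIO-LPS, so that SPIO lay between CON and LPS (interaction 1.52 ± 0.10). Tent5c, a poly(A) polymerase, was at 7.44 to 7.55, 5.26 to 5.42, 8.37 to 8.50 and 7.65 to 7.68 in the same order of groups (interaction 1.39 ± 0.13), and on linear signals the difference was close to 0 with the sign turned (-0.364). Cx3cr1, the fractalkine receptor, was at 8.43 to 8.88, 7.27 to 7.47, 6.85 to 7.05 and 6.67 to 6.92, and iron oxide alone had lowered it below the level it had with LPS (interaction 1.16 ± 0.17, adjusted p = 0.000251). Its dimmer probe set, with a mean of 4.36, gave 0.31. Lncpint, a long noncoding RNA, had an interaction of 1.44 ± 0.39 that rested on CON arrays spread from 5.06 to 6.60. Its adjusted p was 0.0301, and between 0.0549 and 0.0689 when CON 3, LPS 1, LPS 3, SPIO 1, SPIO 2, SPIO 3, SPIO-LPS 1 or SPIO-LPS 2 was left out. Rnf225, a ubiquitin ligase gene, rose with LPS after both pretreatments, by 1.81 and 3.17.

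At the receptor itself the interaction was small. Tlr4 fell with LPS by 0.75 after medium and by 0.75 after iron oxide, an interaction of 0.00 ± 0.07. Cd14 was at 12.07 to 12.12 in CON, 13.63 to 13.67 in LPS, 11.24 to 11.34 in SPIO and 13.59 to 13.65 in SPIO-LPS, so that iron oxide lowered it in cells without LPS and the groups with LPS overlapped (interaction 0.78 ± 0.057, adjusted p = 3.54e-07). Of 19 genes of Toll-like receptor 4 signalling, 2 were called higher, Cd14 and the kinase scaffold Ikbkg (0.34 ± 0.07), and 2 lower, the MAP kinase kinase kinase Map3k8 (-0.60 ± 0.12) and the adaptor Myd88 (-0.28), beside 3.73% and 5.07% of all genes. Their median of 0.01 was that over all genes, and the counts of the lists that follow stand beside the same shares.

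Among 24 NF-kB subunits and feedback inhibitors 3 were called higher and 5 lower, beside 3.73% and 5.07% of all genes, with a median of -0.02. The phosphatase genes Dusp2 (-1.47), Dusp1 (-0.56) and Dusp16 (-0.41) were lower and Dusp6 (0.33) higher. Il1rn, the interleukin 1 receptor antagonist, was at 12.08 ± 0.094 (SD, n = 3) in LPS and 10.95, 10.94 and 10.95 in SPIO-LPS, and its interaction was -0.73 ± 0.13 (adjusted p = 0.00156). Nfkbia, the prompt inhibitor of NF-kB, had an interaction of 0.00 ± 0.058, and Socs3, an inhibitor of IL-6 signalling, of -0.16 ± 0.13 (adjusted p = 0.585, or 0.0448 for the mean of its probe sets at -0.29). Nfkbie, at 0.56 ± 0.16 and adjusted p = 0.0449, was no longer called when any array except SPIO 1 or SPIO 3 was left out (adjusted p 0.051 to 0.103), and the count of 3 fell to 1 without CON 3, LPS 1, LPS 2, SPIO-LPS 2 or SPIO-LPS 3.

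Immediate-early transcription factors, which respond within minutes to hours of a stimulus, had called interactions in 15 of 23 genes (65.2%), 8 higher and 7 lower, beside 8.8%, 3.73% and 5.07% of all genes. The largest were Maff (0.79 ± 0.087) and Fosl1 (0.69 ± 0.085), partners in AP-1 and related dimers, and on the other side Batf (-0.66 ± 0.16). Maff was at 7.28 to 7.46 in CON, 8.07 to 8.13 in LPS, 7.22 to 7.34 in SPIO and 8.79 to 8.88 in SPIO-LPS, where the arrays without LPS overlapped and those with it did not. Fosl1 stayed at 6.78 to 6.96 in CON and LPS, was lower in SPIO at 6.33 to 6.52, and was 6.98 to 7.16 in SPIO-LPS. A dimmer probe set of Fosl1, with a mean of 4.23, gave an interaction of 0.15. The count of 7 lower genes fell to 4 without SPIO 2, SPIO 3 or SPIO-LPS 1.

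The cytokine genes split. Of 21 measured, 5 were called higher (Il1b, Il12a, Il6, Tnf and Csf1) and 5 lower (Il10, Ifnb1, Tnfsf9, Lif and Ebi3), with a median of -0.02. The higher count fell to 3 without CON 2, LPS 1, SPIO 2 or SPIO-LPS 1. Il1b, the secreted pyrogen interleukin 1 beta, was at 7.25, 6.96 and 7.15 in CON, 13.80, 13.82 and 13.61 in LPS, 5.48, 5.66 and 5.67 in SPIO and 13.60, 13.60 and 13.56 in SPIO-LPS. The difference between the responses lay in the cells without LPS, where iron oxide had lowered Il1b by 1.51, while the effect under LPS was -0.16 and not called (adjusted p = 0.171). Its interaction was 1.36 ± 0.12 (adjusted p = 1.79e-06) on the log2 scale and -1350 signal units (adjusted p = 0.134) on linear signals.

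Il12a behaved otherwise. This gene of the p35 chain of interleukin 12 was at 3.65 to 3.97 in CON and 3.70 to 3.92 in SPIO, near the lower end of the scale, at 4.93, 5.09 and 4.64 in LPS and at 5.86, 6.13 and 6.42 in SPIO-LPS. Its higher interaction came from the arrays with both treatments (1.24 ± 0.23, adjusted p = 0.00246). Il12b, its partner chain, had -0.46 ± 0.20 (adjusted p = 0.207), and -0.65 with adjusted p = 0.0221 when CON 3 was left out. On linear signals the sign of Il12b turned (127 signal units).

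Il6 stood at 12.11, 12.13 and 11.98 in LPS and at 12.40, 12.57 and 12.38 in SPIO-LPS, from 3.62 to 4.17 in CON and 3.25 to 3.48 in SPIO (interaction 0.79 ± 0.16, adjusted p = 0.00508). Its signals without LPS lay near the lower end of the scale and may not be above background, and the interaction rests in part on them. Tnf was at 12.25 to 12.48 in LPS and 13.02 to 13.09 in SPIO-LPS, but with 6.52 to 6.87 in CON and 6.91 to 7.07 in SPIO its interaction was 0.44 ± 0.12 (adjusted p = 0.0319). The Tnf call was lost without CON 2, CON 3, LPS 1, LPS 3, SPIO 2, SPIO 3, SPIO-LPS 1 or SPIO-LPS 3 (adjusted p 0.0521 to 0.082) and with the replicate number as a block (0.0526). Ifnb1, interferon beta, was at 5.99, 6.07 and 6.00 in LPS and 5.42, 5.63 and 5.26 in SPIO-LPS, from 3.65 to 4.09 without LPS (interaction -0.70 ± 0.17, adjusted p = 0.0169). Il1a, at -0.13 ± 0.22, and Csf3, at 0.11 ± 0.16, were not called, and on linear signals the sign of Il1a turned (424).

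**Figure D3:**
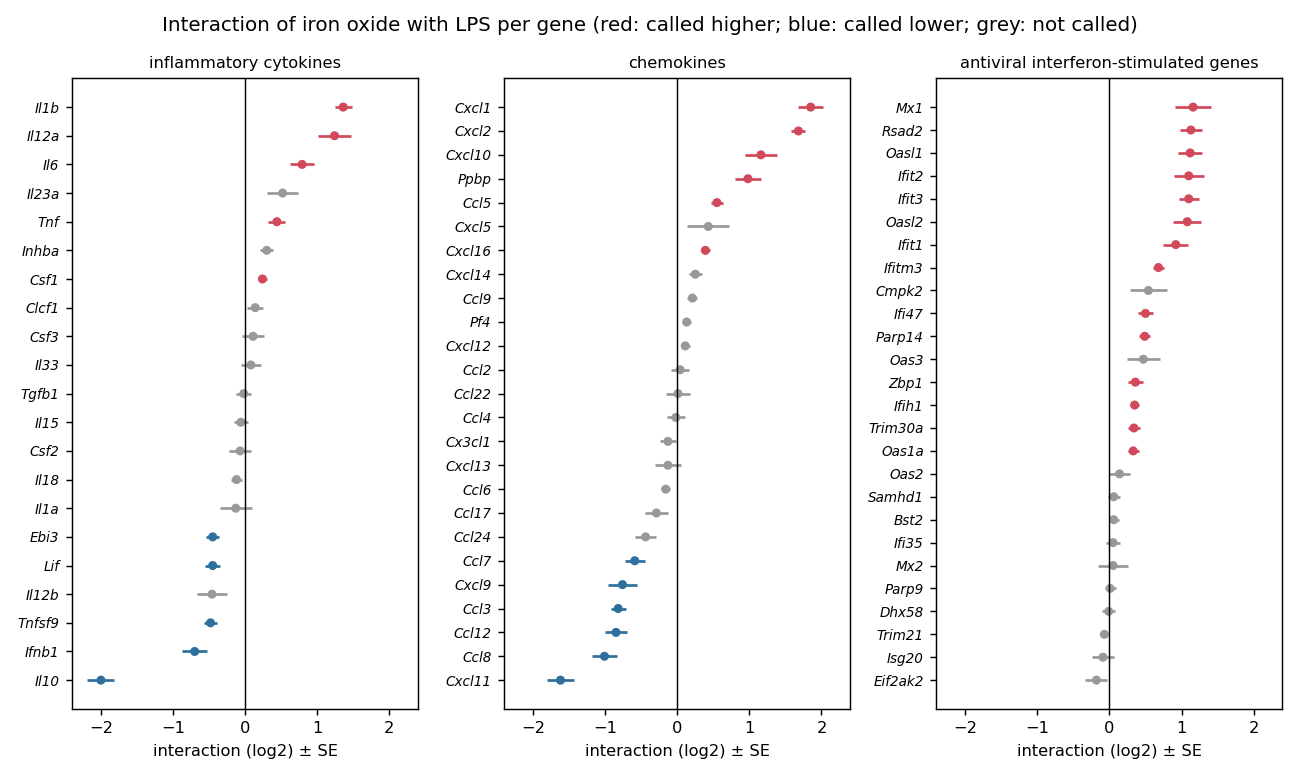
Points are the interaction of each gene on the log2 scale (horizontal axes) with bars of 1 SE, for 21 inflammatory cytokines, 25 chemokines and 26 antiviral interferon-stimulated genes in 3 panels. Called cytokines and chemokines lie on both sides of 0, from Il10 at -2.0 to Cxcl1 at 1.85, and all 14 called antiviral genes lie above 0 on this scale.

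Chemokines went both ways. Of 25 measured, 6 were called higher and 6 lower, beside 3.73% and 5.07% of all genes, with a median of 0.01. Cxcl1, which draws neutrophils through CXCR2, was at 5.07, 4.97 and 5.11 in CON, 12.31, 12.24 and 12.14 in LPS, 4.05, 4.51 and 4.00 in SPIO and 13.18, 13.20 and 13.26 in SPIO-LPS. Iron oxide thus left it lower without LPS and higher with it, with no overlap in either setting. Its rise was 145-fold after medium and 522-fold after iron oxide (interaction 1.85 ± 0.18, adjusted p = 4.85e-06). These folds are lower bounds if the low signals without LPS were not above background. Iron oxide changed Cxcl1 by -0.86 without LPS and by 0.99 with it. Cxcl2, of the same function, was at 8.38, 8.54 and 8.40 in CON, 13.18, 13.22 and 13.04 in LPS, 7.14, 7.21 and 7.12 in SPIO and 13.49, 13.57 and 13.57 in SPIO-LPS, with rises of 26.1-fold and 83.7-fold (interaction 1.68 ± 0.097, adjusted p = 4.04e-08).

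Ligands of CXCR3, which draw activated T cells, differed among themselves. Cxcl11 (-1.62) and Cxcl9 (-0.76 ± 0.20, adjusted p = 0.0225) were lower and Cxcl10 was higher (1.16 ± 0.22, adjusted p = 0.00234). Cxcl10 was at 6.59, 6.67 and 6.63 in CON, 14.34, 14.29 and 14.25 in LPS, 5.56, 4.87 and 5.61 in SPIO and 14.17, 14.24 and 14.09 in SPIO-LPS. The arrays with LPS stood near the highest signals of the arrays, 14.48 to 14.62, and the interaction came from the lower SPIO values. On linear signals it turned to -1560 (adjusted p = 0.0612).

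The promoters of Cxcl1, Cxcl2 and Cxcl10 are shown because these 3 chemokines of chromosome 5 had the largest interactions above 0 among the chemokines. They are the 250 bases upstream of each start, from RefSeq in build GRCm38.p6, at chr5:90890995-90891244 (plus strand), chr5:90903649-90903898 (plus strand) and chr5:92348890-92349139 (minus strand). Capitals mark the searched motifs: NF-kB (GGG, any 3 bases and TTCC), the ISRE, AP-1 (TGANTCA) and the antioxidant response element (TGANNNNGC), on both strands.
Cxcl1: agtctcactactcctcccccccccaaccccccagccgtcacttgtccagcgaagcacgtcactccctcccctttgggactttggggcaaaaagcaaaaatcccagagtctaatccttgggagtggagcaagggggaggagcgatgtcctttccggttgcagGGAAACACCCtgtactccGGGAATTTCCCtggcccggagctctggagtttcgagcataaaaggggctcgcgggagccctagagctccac
Cxcl2: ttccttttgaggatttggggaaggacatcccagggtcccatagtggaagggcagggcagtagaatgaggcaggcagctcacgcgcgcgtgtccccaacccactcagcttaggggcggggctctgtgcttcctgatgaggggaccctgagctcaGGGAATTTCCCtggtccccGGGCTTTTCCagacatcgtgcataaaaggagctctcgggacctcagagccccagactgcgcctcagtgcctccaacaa
Cxcl10: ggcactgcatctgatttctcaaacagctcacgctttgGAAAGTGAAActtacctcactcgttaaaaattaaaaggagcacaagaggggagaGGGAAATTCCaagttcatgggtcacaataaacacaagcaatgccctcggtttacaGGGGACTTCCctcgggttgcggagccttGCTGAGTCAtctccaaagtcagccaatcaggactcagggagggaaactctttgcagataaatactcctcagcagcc
Cxcl1 and Cxcl2 each held 3 NF-kB matches within 100 bases of the start, a pair of them overlapping on opposite strands. Cxcl10 held NF-kB matches 159 and 104 bases and an ISRE match 213 bases before the start, and its AP-1 match overlapped the antioxidant match. NF-kB letters were in 5.98% of the 9887 promoters, AP-1 letters in 6.27% and the antioxidant letters in 42.5%.

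Neighbours on the chromosome moved together in some cases and apart in others. In RefSeq order Cxcl1 and Cxcl2 are adjacent, and both were higher. Ppbp on the same chromosome was called higher (0.98 ± 0.18), while Pf4 beside it was not called (0.13 ± 0.054). Cxcl9 and Cxcl10 lie there with 1 coding gene between them and had interactions of opposite sign on the log2 scale, where that of Cxcl10 turned on linear signals. On chromosome 11, the monocyte chemokine gene Ccl2 had an interaction of 0.04 ± 0.13, while Ccl7 beside it had -0.59 ± 0.14, Ccl12 had -0.85 ± 0.15 and Ccl8, next to Ccl12, had -1.01 ± 0.18. Ccl2 stood at 11.90 to 12.13 in LPS and 11.24 to 11.43 in SPIO-LPS, with a like gap without LPS, 7.45 to 7.63 against 6.68 to 6.86, so on linear signals it turned to -1580 (adjusted p = 3.06e-05). Ccl3, which draws monocytes and T cells, was called lower (-0.82 ± 0.10, adjusted p = 8.22e-05), while Ccl4, the adjacent gene, had -0.02 ± 0.12. Ccl3 was raised in cells without LPS, from 7.21 to 7.60 in CON to 8.34 to 8.43 in SPIO, and was 13.76 to 13.86 in LPS and 13.95 to 14.02 in SPIO-LPS, so that its sign turned on linear signals (1710). Ccl5 had 0.55 ± 0.082, with LPS and SPIO-LPS arrays overlapping above 14, and -205 on linear signals.

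Antiviral interferon-stimulated genes moved to one side on the log2 scale. Of 26 measured, 14 were called higher and none lower, with a median interaction of 0.36 beside 0.01 over all genes, and leaving out each array in turn gave 13 to 15 higher and none lower. At an unadjusted p below 0.05 in limma 14 were higher and none lower as well. The difference lay in the cells without LPS. Iron oxide alone lowered 21 of the 26 (14.2% of all genes were called lower by it), with a median of -0.48, while under LPS 8 were lower and 2 higher (background 14.6% and 18.2%), with a median of -0.12. Mx1, an interferon-induced GTPase gene, was at 5.64, 5.89 and 5.53 in CON, 12.79, 12.86 and 12.73 in LPS, 4.27, 4.66 and 3.81 in SPIO and 12.46, 12.55 and 12.54 in SPIO-LPS (interaction 1.16 ± 0.25, adjusted p = 0.00748). Rsad2 (viperin) was at 8.68 to 8.82 in CON, 7.42 to 7.92 in SPIO, 14.24 to 14.27 in LPS and 14.28 to 14.30 in SPIO-LPS (interaction 1.13 ± 0.15, adjusted p = 0.000148). With LPS it stood near the highest signals of the arrays, 14.48 to 14.62, where a difference may be compressed. On linear signals, which weight the cells with LPS, the list turned to 2 higher and 9 lower, beside 737 and 1168 of all 12393 genes. Mx1 was then at -1210 (adjusted p = 0.00276) and Rsad2 at 639 and no longer called (adjusted p = 0.144). The direction of this list is therefore a matter of scale. Oasl1, another antiviral gene, kept its sign and its call on both scales, with 12.02 to 12.12 in LPS, 12.35 to 12.45 in SPIO-LPS, 5.57 to 5.84 in CON and 4.78 to 5.06 in SPIO (interaction 1.12 ± 0.17).

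The regulators of interferon genes showed both directions. Of 19, Irf1, Irf7, Ifngr1 and Irf9 were called higher and Irf8 lower, and on linear signals 2 were higher and 8 lower. Irf1, an interferon gamma-induced activator, was at 9.65 to 9.72 in CON, 9.11 to 9.23 in SPIO, 11.49 to 11.59 in LPS and 11.72 to 11.86 in SPIO-LPS (interaction 0.79 ± 0.068, adjusted p = 1.79e-06). Irf7, which amplifies type I interferon, was at 6.91 to 7.05 in CON, 5.73 to 5.83 in SPIO, 11.22 to 11.29 in LPS and 10.84 to 10.98 in SPIO-LPS, lower after iron oxide in both settings (interaction 0.87 ± 0.11), and turned to -464 on linear signals. Among 9 interferon-induced GTPases of the GBP and IRG families, which attack vacuoles of pathogens, Ifi47 (0.50 ± 0.10, also counted among the antiviral genes), Irgm2 (0.34 ± 0.10) and Irgm1 (0.33 ± 0.072) were called higher and none lower. Linear signals gave 1 higher and 3 lower, with Ifi47 at -443 and Irgm1 at -53.8. The Irgm2 call, at adjusted p = 0.0491, was lost when any array except CON 2, SPIO 2 or SPIO-LPS 3 was left out (adjusted p 0.0531 to 0.111).

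Among genes of the NRF2 response and of glutathione, Gclc, Srxn1, Sqstm1 and Gclm had the largest interactions, all above 0. Of 34 measured, 11 were called higher and 3 lower, with a median of 0.08 beside 0.01 over all genes. The count of 11 lay between 10 and 14 under 21 alternatives, which did not include a minimum size of change, and that of 3 fell to 1 without CON 1, CON 2 or SPIO-LPS 2. Gclc, the catalytic subunit of the enzyme that starts glutathione synthesis, was at 9.33, 9.51 and 9.49 in CON, 8.46, 8.40 and 8.47 in LPS, 9.90, 9.95 and 9.98 in SPIO and 10.12, 10.10 and 10.13 in SPIO-LPS. LPS lowered it 2.0-fold after medium and raised it 1.13-fold after iron oxide (interaction 1.17 ± 0.076, adjusted p = 1.37e-07). Gclm, the regulatory subunit, was at 11.70, 11.81 and 11.85 in CON, 10.81, 10.92 and 11.01 in LPS, 12.65, 12.66 and 12.71 in SPIO and 12.67, 12.65 and 12.69 in SPIO-LPS. The fall seen after medium was not detected after iron oxide, where both groups overlapped (interaction 0.87 ± 0.075, adjusted p = 1.79e-06).

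Srxn1 and Sqstm1 rose more rather than falling less. Srxn1, sulfiredoxin, which repairs oxidised peroxiredoxins, was at 9.03, 8.95 and 9.26 in CON, 9.72, 9.78 and 9.80 in LPS, 10.25, 10.33 and 10.30 in SPIO and 12.07 ± 0.076 (SD, n = 3) in SPIO-LPS (interaction 1.09 ± 0.093, adjusted p = 1.79e-06). Sqstm1, the autophagy receptor p62, was at 10.69 to 10.82, 11.51 to 11.58, 11.45 to 11.55 and 13.22 to 13.28 in the same order, with LPS and SPIO overlapping and the combination above both (interaction 0.95 ± 0.064, adjusted p = 1.72e-07). Both genes were higher than CON with each treatment alone and highest with both. Other called members were Osgin1 (0.87), Gss (0.54), Mafg (0.50), Pgd (0.43), Txnrd1 (0.42), Abcc1 (0.40) and Taldo1 (0.20) on the higher side and Gsr (-0.41), Gstm1 (-0.25) and Txn1 (-0.18) on the lower.

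Hmox1 and Slc7a11, also NRF2 targets, were not called. Hmox1, heme oxygenase 1, was at 10.37, 10.63 and 10.67 in CON, 11.03, 11.09 and 11.19 in LPS, 11.65, 11.80 and 11.69 in SPIO and 12.49, 12.43 and 12.58 in SPIO-LPS. Its interaction of 0.23 ± 0.10 on the log2 scale did not reach the threshold (adjusted p = 0.204). Without CON 1 it was 0.33 and called (adjusted p = 0.0275), and on linear signals it was 1740 (adjusted p = 1.68e-06). Slc7a11, the cystine importer, rose from 4.76 to 5.51 in CON to 11.32 to 11.34 in SPIO-LPS, with an interaction of -0.43 ± 0.20 (adjusted p = 0.231) that turned to 1510 on linear signals (adjusted p = 1.27e-15).

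**Figure D4:**
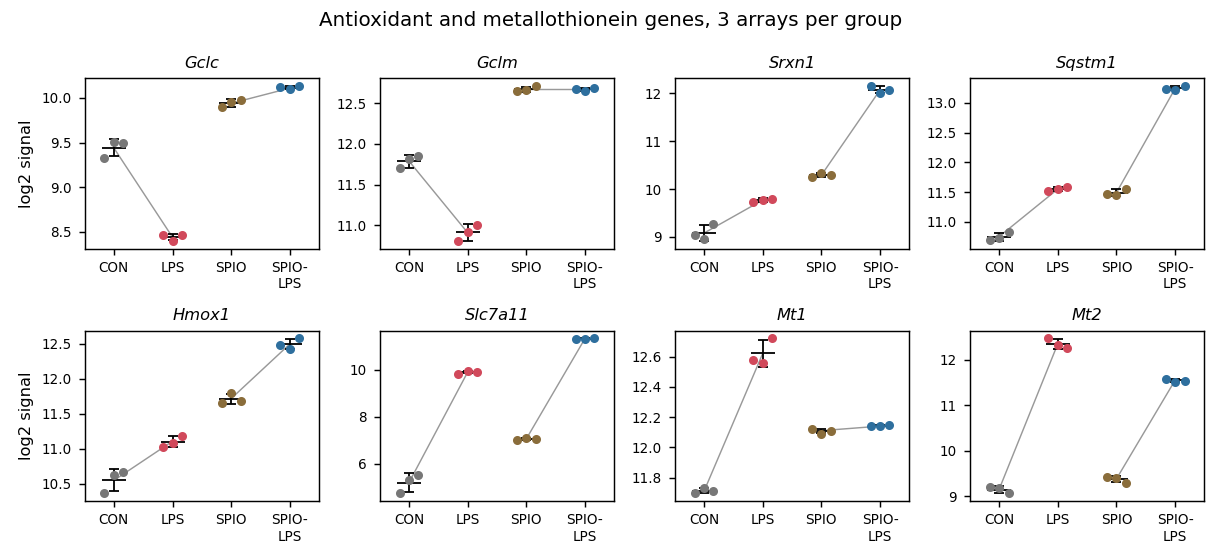
Points are the log2 signals (vertical axes) of 6 antioxidant and 2 metallothionein genes on the 3 arrays of each group (horizontal axes), with bars for the mean ± SD and lines joining the groups without and with LPS. Gclc and Gclm fall with LPS after medium and do not after iron oxide, Srxn1 and Sqstm1 are highest with both treatments, and Mt1 rises with LPS after medium while its SPIO and SPIO-LPS arrays lie between 12.09 and 12.15.

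The promoter of Gclm is shown as that of an antioxidant gene that fell with LPS after medium and not after iron oxide. It lies at chr3:122245307-122245556 on the plus strand of GRCm38.p6 (RefSeq), with capitals for a match to the antioxidant response element on the reverse strand, 134 bases before the start.
Gclm: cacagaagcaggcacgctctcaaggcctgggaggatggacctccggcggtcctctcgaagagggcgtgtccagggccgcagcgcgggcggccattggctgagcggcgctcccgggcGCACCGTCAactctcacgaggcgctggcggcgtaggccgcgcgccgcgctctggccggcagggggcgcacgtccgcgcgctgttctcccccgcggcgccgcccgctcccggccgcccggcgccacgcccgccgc
These short letters are common, and 45.1% of promoters of genes called higher held them, 43.7% of those called lower and 42.5% of all.

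Both metallothioneins, small proteins that bind zinc and copper, were lower. Mt1 was at 11.70, 11.73 and 11.71 in CON, 12.58, 12.56 and 12.72 in LPS, 12.12, 12.09 and 12.11 in SPIO and 12.14, 12.14 and 12.15 in SPIO-LPS, so that iron oxide raised Mt1 by itself and no further rise with LPS was called (interaction -0.87 ± 0.063, adjusted p = 3.37e-07). A dimmer probe set of Mt1, with a mean log2 signal of 5.09, gave -0.16. Mt2, the adjacent gene, was at 9.07 to 9.20, 12.26 to 12.47, 9.30 to 9.42 and 11.52 to 11.58 (interaction -1.04 ± 0.08, adjusted p = 6.42e-07). The zinc exporter Slc30a1 went the other way (0.30 ± 0.071). Of 19 genes of heme uptake and breakdown, 4 were called higher, among them Slc48a1, a heme transporter of lysosomes (0.34 ± 0.071, not called on linear signals, adjusted p = 0.944), and Blvrb, a biliverdin reductase (0.31 ± 0.073), and 1 lower, or 2 without SPIO 1.

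Among effector enzymes of the LPS response, Ch25h, Saa3 and Upp1 were lower. Of 23, 7 were called lower and 1 higher, with a median of -0.11, and linear signals gave 5 each way. Ch25h makes the antiviral oxysterol 25-hydroxycholesterol. It was at 5.80, 5.85 and 5.95 in CON, 12.21, 12.36 and 12.16 in LPS, 4.94, 5.26 and 5.21 in SPIO and 10.35, 10.51 and 10.35 in SPIO-LPS, lower after iron oxide in both settings and more so with LPS (interaction -1.11 ± 0.11, adjusted p = 6.05e-06). Saa3, serum amyloid A3, had -0.82 ± 0.18, with LPS and SPIO-LPS arrays close to 13.9, and was not called on linear signals (adjusted p = 0.211). Upp1, uridine phosphorylase, had -0.79 ± 0.14. The best known products were not called: Nos2, inducible nitric oxide synthase, at -0.02 ± 0.15, Acod1, which makes itaconate, at -0.24 ± 0.14, Arg1, arginase 1, at -0.71 ± 0.27, and Ptgs2, cyclooxygenase 2, at 0.36 ± 0.12. Arg1 was called at -0.91 without SPIO 1 (adjusted p = 0.0372) and Ptgs2 at 0.43 without LPS 2 (adjusted p = 0.0396), while Ptgs2 turned to -428 on linear signals. The called higher gene, Ncf4, was joined by a second without LPS 2 or LPS 3.

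Genes of the PPAR gamma programme for lipids included some of the lower interactions. Fabp4 was at 9.03 to 9.14 in CON, 9.50 to 9.74 in LPS, 10.89 to 10.99 in SPIO and 10.38 to 10.56 in SPIO-LPS (interaction -1.04 ± 0.089, adjusted p = 1.79e-06). Pparg itself was at 6.33 to 6.62, 5.08 to 5.43, 6.79 to 7.03 and 4.46 to 5.28, with differences that overlapped between the settings (interaction -0.99 ± 0.23, adjusted p = 0.0111). Abcg1, a cholesterol exporter, had -0.75 ± 0.10 and the exporter Abca1 0.43, in opposite directions. In all, 2 of 30 liver X receptor and PPAR targets were called higher and 5 lower, beside 3.73% and 5.07% of all genes. None of 20 genes of cholesterol synthesis and uptake was called in either direction in limma, and at an unadjusted p below 0.05 there was 1 each way, although 18 of the 20 were called higher after iron oxide without LPS (19.6% of all genes) and 18 with it. On linear signals 7 were called higher and 1 lower, beside 737 and 1168 of all 12393 genes. Of 55 lysosome and autophagy genes 4 were called higher and 5 lower, beside 3.73% and 5.07% of all genes, with a median of 0.00 and with -0.40 ± 0.081 for the galactosidase Gla. The 5 fell to 3 without CON 2, SPIO 2 or SPIO 3. On linear signals 2 were higher and 20 lower, where calls over all genes also rose to 737 and 1168. Among 28 genes of glycolysis and hypoxia 2 were called higher and 3 lower, beside the same shares of all genes. The 2 fell to 1 when any array except CON 1, LPS 3 or SPIO-LPS 2 was left out. Hk2, hexokinase 2, joined Pfkfb3 on the lower side (-0.47 ± 0.098) and Adm, adrenomedullin, was the largest on the higher side (0.73 ± 0.12).

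Besides Plk2 and Cdkn2b, other genes of the cell cycle and of stress were called. Cdkn1a, the p21 inhibitor, was at 11.01 to 11.11 in CON, 12.98 ± 0.023 (SD, n = 3) in LPS, 10.50 to 10.68 in SPIO and 13.24 to 13.30 in SPIO-LPS (interaction 0.78 ± 0.07, adjusted p = 2.36e-06). Ccnd2, cyclin D2, was at 9.62 to 9.76, 10.89 to 10.94, 9.39 to 9.52 and 9.81 to 9.98 (interaction -0.83 ± 0.082, adjusted p = 7.62e-06), and Cdkn2d, the p19 inhibitor, lost its rise of 0.62 with LPS (-0.04 after iron oxide, interaction -0.66 ± 0.057). Of 47 cell cycle genes 2 were called higher and 3 lower, shares near the 3.73% and 5.07% of all genes. Of 21 p53 targets 4 were called higher, including Plk2 and Cdkn1a, and 1 lower, Gadd45a, a growth arrest gene that iron oxide raised from 7.70 to 7.84 in CON to 8.76 to 8.99 in SPIO and that lay at 9.47 to 9.58 in LPS and 9.31 to 9.50 in SPIO-LPS (interaction -1.21 ± 0.095, adjusted p = 7.7e-07). The count of 1 became 2 without CON 3 or SPIO-LPS 1 and 3 without LPS 3. Ppp1r15a (GADD34), which reverses the translation block of the integrated stress response, was at 7.39 to 7.51, 9.24 to 9.35, 7.95 to 8.01 and 10.69 to 10.86 (interaction 0.92 ± 0.083, adjusted p = 2.86e-06). Among 42 genes of ATF4 and the unfolded protein response 3 were higher and 6 lower, beside 3.73% and 5.07% of all genes. Leaving out each array in turn gave 2 to 3 higher and 4 to 7 lower. Xbp1, a factor of the unfolded protein response, was among the lower (-0.43 ± 0.086).

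Inflammasome genes went both ways. Of 25 genes of the inflammasome and cell death 5 were called each way. Nlrp3, the sensor, was higher (0.76 ± 0.15, adjusted p = 0.00439), with LPS arrays at 10.84 to 11.15 and SPIO-LPS arrays at 11.03 to 11.41, and on linear signals it was not called (adjusted p = 0.0981). Pycard (ASC), the adaptor that joins the sensor to caspase 1, was at 10.36 to 10.42 in CON, 10.11 to 10.15 in LPS, 10.39 to 10.45 in SPIO and 9.52 to 9.56 in SPIO-LPS, lower with LPS after medium and lowest in the combination (interaction -0.62 ± 0.057, adjusted p = 3.53e-06). The lower count of 5 fell to 2 without CON 2 and to 3 without LPS 1, LPS 2, SPIO 3, SPIO-LPS 1 or SPIO-LPS 3.

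Tgm2 and several surface receptors were also called. Tgm2, transglutaminase 2, was at 11.65 to 11.75 in CON, 12.25 to 12.35 in LPS, 10.47 to 10.53 in SPIO and 12.29 to 12.35 in SPIO-LPS. SPIO was lower than CON, and the groups with LPS overlapped (interaction 1.21 ± 0.058, adjusted p = 5.97e-09). Fcgr3, a low-affinity receptor for immunoglobulin G, fell by 0.57 after medium and by 1.17 after iron oxide (interaction -0.59 ± 0.055). The integrin Itgav had 0.55 ± 0.058. Csf3r, the receptor for granulocyte colony-stimulating factor, rose from 8.59 to 8.63 in CON to 9.53 to 9.67 in LPS and was 8.90 to 9.08 in SPIO and 8.91 to 9.05 in SPIO-LPS (interaction -0.95 ± 0.079, adjusted p = 1.45e-06). Of 15 genes of MHC class II and costimulation, 2 were called lower, the costimulator Cd86 (-0.48 ± 0.08) and Cd274, the checkpoint ligand PD-L1 (-0.70 ± 0.087). Cd274 was higher in SPIO-LPS, at 12.24 to 12.32, than in LPS, at 11.95 to 12.04, and its interaction came from the rise with iron oxide alone, from 7.72 to 7.83 in CON to 8.66 to 8.81 in SPIO, so that linear signals turned it to 670 (adjusted p = 0.000138). Marco, a scavenger receptor for particles, had -0.16 ± 0.11 (550 on linear signals) and Ccr2, the receptor for CCL2, had 0.22 ± 0.17, and neither was called.

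**Figure D5:**
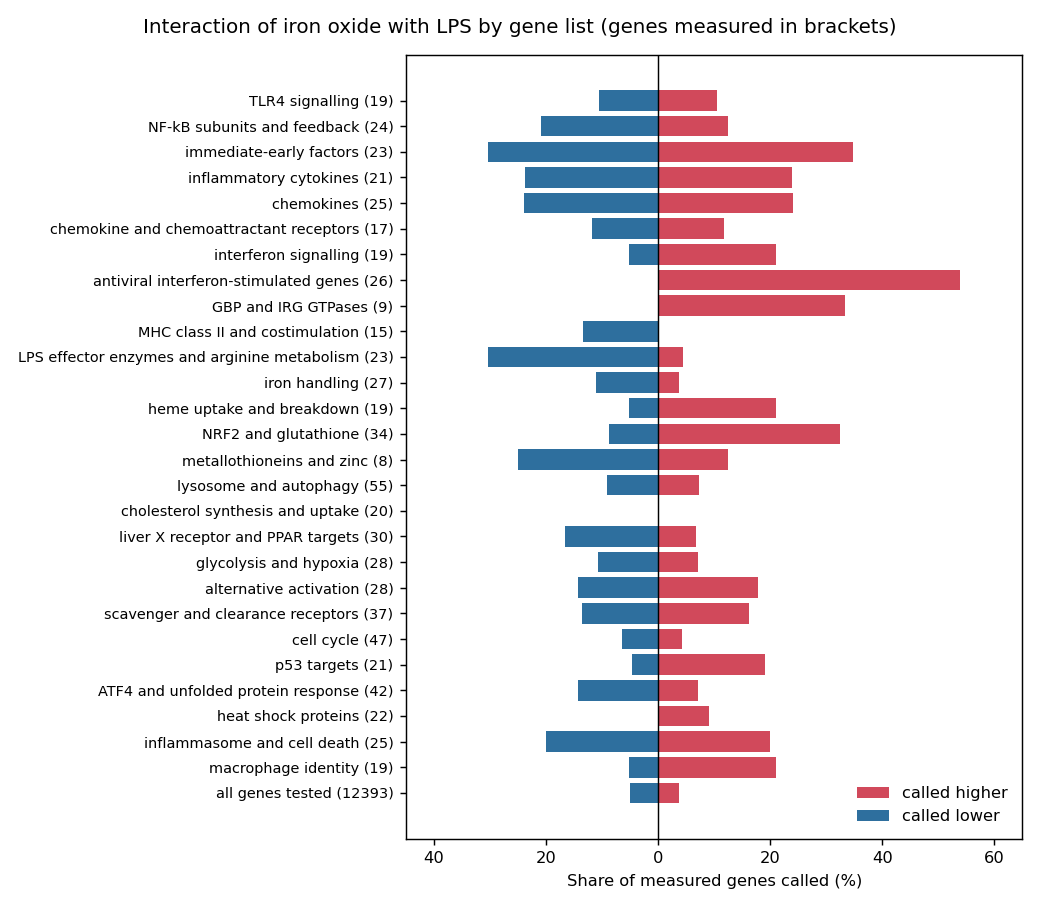
Bars are the share of measured genes in each list (numbers in brackets, vertical axis) whose interaction was called, in percent on the horizontal axis, with those called higher to the right of 0 and those called lower to the left. Antiviral genes reach 53.8% on the higher side with none lower, immediate-early factors were called in 65.2% of genes over both directions, and no gene of cholesterol synthesis was called, beside 3.73% higher and 5.07% lower over all genes tested.

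Silica served as a comparison particle. The interaction of silica with LPS was called for 2 genes (0.0161% of those tested), Ccnd2 at -0.55 and Plpp3, a lipid phosphatase, at 0.44, and 843 genes (6.8%) had an unadjusted p below 0.05 beside 2547 (20.6%) for iron oxide. The difference between the particles was tested directly as (SPIO-LPS minus SPIO) minus (Silica-LPS minus Silica), in which CON and LPS cancel. It was called for 717 genes (5.79%), 258 higher after iron oxide (2.08%) and 459 lower (3.7%). Of the 1090 genes with a called interaction of iron oxide with LPS, 598 (54.9%) were called here with the same sign and none with the opposite sign, a count that rests in part on the SPIO and SPIO-LPS arrays common to both contrasts.

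The 5 largest differences each way were in Rabgap1l, Plk2, Cdkn2b, Slc40a1 and Ahr and in Tha1, Il10, Dusp2, Pfkfb3 and Saa1. The difference was 1.95 ± 0.097 for Rabgap1l, 1.84 ± 0.062 for Plk2, 1.71 ± 0.12 for Cdkn2b, 1.70 ± 0.13 for Slc40a1 and 1.51 ± 0.11 for Ahr, and none of the Silica interactions of these 5 genes was called. It was -1.49 ± 0.13 for Tha1, -1.47 ± 0.19 for Il10, -1.47 ± 0.11 for Dusp2 and -1.47 ± 0.068 for Pfkfb3. Saa1, an acute-phase gene, differed by -1.35 ± 0.23 (adjusted p = 0.00153). It lay at 4.78 to 5.10 in SPIO-LPS and at 5.56 to 6.27 in LPS, a group that does not enter this difference. Saa1 was dim, with a mean log2 signal of 4.52. Its interaction of iron oxide with LPS was -0.93, and -0.58 on a second probe set with a mean of 4.45. Other genes were called for iron oxide alone and not in the test of the difference. For Fgl2 the difference was -0.76 (adjusted p = 0.0631), for Cxcl10 0.51 (adjusted p = 0.233), for Mx1 0.51 (adjusted p = 0.331) and for Irf7 0.31 (adjusted p = 0.142), so that a difference between the particles was not shown for them. Of the 26 antiviral genes 6 were called higher in the difference and none lower, and of the 34 NRF2 and glutathione genes 7 were higher and 2 lower.

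The letters of 7 motifs were counted in the promoters of genes that moved together. Of the 462 genes called higher 370 had a RefSeq promoter, and of the 628 called lower 504 had one. ISRE letters were in 6.22% of the higher, 3.57% of the lower and 3.17% of all 9887. E-box letters (CACGTG) were in 9.19%, 14.7% and 9.33%, and NF-kB letters in 6.49%, 6.94% and 5.98%. Within the 680 genes raised at least 2-fold by LPS in the silica arrays, ISRE letters were in 18.3% of 82 promoters with a higher interaction, 6.87% of 131 with a lower interaction and 10.1% of all 563. AP-1 letters were in 18.3%, 13.7% and 10.5% of the same sets. No test was made of these shares.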

How the data were processed

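RNA of 18 cultures was measured on Affymetrix mouse arrays. Each deposited value is the log2 signal of a probe set after RMA, per the submitters' processing notes. The version, settings and genome build of that step were not given in the sources used here. RMA shrinks differences at both ends of the scale, and arrays count no reads, so their number limits the precision. Probe sets with 1 gene symbol (20380 of 22626) were kept, symbols were updated through RefSeq, and each gene took its brightest probe set. limma 3.58.1 in R 4.3.3 fitted 1 mean per group over all 18 arrays (lmFit, contrasts.fit, eBayes), with Benjamini-Hochberg adjustment over 12393 genes. No pseudocount, filter or covariate was used. Figures were drawn with matplotlib 3.10.9 in Python 3.11.15. The fit was tested on simulated data.

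Genes were named as the 12 largest called interactions each way without overlap, the 5 largest each way against silica, up to 3 called genes per list with the largest interaction, and 32 fixed genes, 108 in all. The comparison, the gene lists and the fixed genes were chosen with earlier results of these data known. Marker genes, genes listed to complete a count, neighbours of chemokine genes, Abca1, Dusp1, Dusp16, Dusp6, Ncf4, Plpp3, Slc25a28, Plin2, Myc, Pik3r1, Map3k5 and Mapk14 were picked after their values were seen. Alternatives were the replicate number as a block, only the arrays of the contrast, a variance trend with robust prior, no dim genes, other uses of probe sets, cyclic loess, array weights, linear signals with a variance trend, a fold threshold and each array left out. Deviations from group means correlated at a median of -0.01 (-0.31 to 0.19) in 45 pairs of arrays with the same number. In 90 pairs with other numbers the median was 0 (-0.26 to 0.24). No pairing by number was seen, but 3 arrays per group cannot exclude one.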

Additional observations from a re-analysis of the deposited data

Results flagged for a closer look

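The interaction of iron oxide with LPS is itself a test of whether the LPS effect differs between cells with and without the particles, and it was called higher for 462 genes and lower for 628. The test of whether it differs between iron oxide and silica was called higher for 258 genes and lower for 459. The largest such differences, in log2 units, were 1.95 for Rabgap1l, 1.84 for Plk2, 1.71 for Cdkn2b, 1.70 for Slc40a1 and 1.51 for Ahr, and -1.49 for Tha1, -1.47 for Il10, -1.47 for Dusp2, -1.47 for Pfkfb3 and -1.35 for Saa1. Single values far from the rest of a group were not looked for, since each group held 3 arrays.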

How the results depend on the processing

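Linear signals with a variance trend raised the counts to 737 higher and 1168 lower for the interaction, 534 and 901 for the difference from silica, and 343 and 618 among genes lowered by LPS. A minimum of 0.5 on the log2 scale left 167 and 227 for the interaction and 96 and 154 for the difference. With the replicate block there were 420 higher and 595 lower interactions and 246 and 433 differences, and 103 of 108 named genes kept their side of the threshold. Whether arrays of the same number were prepared together was not known. Leaving out each array gave 379 to 508 higher and 500 to 606 lower interactions, 213 to 256 and 349 to 469 differences, 170 to 205 and 255 to 298 among genes raised by LPS, and 138 to 221 and 185 to 255 among those lowered.

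Linear signals turned the sign of Slc40a1 (-448), Tent5c (-0.364), Il1b (-1350), Irf7 (-464), Mx1 (-1210), Ifi47 (-443), Irgm1 (-53.8), Cd274 (670), Il1a (424), Il12b (127), Cxcl10 (-1560), Ccl2 (-1580), Ccl3 (1710), Ccl5 (-205), Ptgs2 (-428), Tlr4 (-24), Nfkbia (-516), Slc7a11 (1510) and Marco (550). A scale that weights high signals is the construction of this alternative. Array weights turned Nos2 (0.00556) and Tlr4 (-0.00753), the mean of probe sets Nfkbia (-0.00389) and cyclic loess Nfkbia (-0.03). With each array left out in turn, 5 uncalled values near 0 changed sign: Csf3 (-6.82e-05 to 0.20), Ccl2 (-0.04 to 0.08), Nos2 (-0.12 to 0.08), Tlr4 (-0.04 to 0.05) and Nfkbia (-0.03 to 0.04). The cause of the other changes was not tested. A median 95% interval of ± 0.25 limits what could be called, and of 12393 genes 13 had a group mean at or above 14 and 2597 at or below 4, limits chosen after seeing the data.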

Other observations

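Receptors by which macrophages bind and clear material showed interactions in both directions. Of 37 scavenger and clearance receptors 6 were called higher and 5 lower, beside 3.73% and 5.07% of all genes, and the 5 fell to 2 without CON 2 and to 3 without SPIO 2 or SPIO 3. Stab1, a scavenger receptor, had an LPS effect of -1.21 on the log2 scale after medium and of -0.78 after iron oxide (0.43 ± 0.1), and Cd163, which takes up hemoglobin bound to haptoglobin, had 0.67 ± 0.19. The Cd163 call was lost with the replicate block (adjusted p = 0.062) and without CON 1, CON 2, CON 3, LPS 1, LPS 2, SPIO 1, SPIO-LPS 1 or SPIO-LPS 2 (adjusted p 0.0509 to 0.096). The Fc receptor genes Fcgr2b (-0.28 ± 0.056) and Fcgr4 (-0.46 ± 0.12) were lower, like Fcgr3.

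Genes of alternative activation were called in 9 of 28 cases, 5 higher and 4 lower, beside 8.8%, 3.73% and 5.07% of all genes. Il4ra, the shared chain of the receptors for interleukins 4 and 13, had an LPS effect of 1.17 after medium and 0.54 after iron oxide (-0.63 ± 0.068), and Il13ra1 of 2.18 and 1.67 (-0.51 ± 0.12). Among receptors for chemoattractants, C5ar1, which binds the complement fragment C5a, was higher (0.48 ± 0.095) and C3ar1, which binds C3a, was lower (-0.46 ± 0.056). Cebpa, a myeloid transcription factor among the 19 genes of macrophage identity, was lowered less after iron oxide (-1.95 and -1.19, interaction 0.75 ± 0.083). Those of these genes outside the naming rule were picked after their values were seen.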
